A study of Mus musculus with 12 samples.

Results

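The genes described here encode steroid hormone receptors and their cofactors, measured in 2 mouse testis cell lines: the estrogen receptors Esr1 and Esr2, the progesterone receptor Pgr, the glucocorticoid and mineralocorticoid receptors Nr3c1 and Nr3c2, the receptor-associated immunophilins Fkbp4 and Fkbp5, and the p160 coactivators Ncoa1 and Ncoa2. They were chosen by name, 9 genes of the 55004 in the count table. These genes and the related lists below were chosen with earlier results of these data known. There were 4 groups, each of 3 RNA-seq libraries. TM4 cells were given 100 uM MEHP or, as the control, 0.1% DMSO, and TM3 cells the same MEHP dose or the same DMSO. Each exposure lasted 72 h, and the labels give no DMSO percentage for the MEHP cells. MEHP is mono-(2-ethylhexyl) phthalate, the main metabolite of the plasticizer DEHP in the body. All groups grew in the same medium with bovine and equine serum, and the labels name no added steroid. Each line is an established mouse line, TM4 labelled Sertoli and TM3 labelled Leydig, without a described genetic change. Both lines are called rat in some label fields, although the organism given is mouse and the genes carry mouse identifiers. Whether the 3 libraries of a group came from separate cultures is not stated, so a p-value here reflects only how far these libraries spread, possibly for technical reasons. Libraries are numbered by the replicate number in their titles.

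Steroid receptors are transcription factors that a hormone switches on. Without hormone, glucocorticoid, mineralocorticoid and progesterone receptors sit in a complex of HSP90, the small acidic protein p23 and an immunophilin such as FKBP4 (FKBP52) or FKBP5 (FKBP51), whose exchange alters hormone binding and entry into the nucleus. The bound receptor recruits p160 coactivators, which bring histone acetyltransferases to its target genes. In the testis, Sertoli cells nurse the germ cells and Leydig cells make androgen, and both cell types are targets of steroid hormones.

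The 12 libraries held 15771908 to 18203115 counts, so 3 counts, the floor used for a gene at 0, were worth 0.165 to 0.190 CPM, the count scaled to a common library total. Some defining markers of both labelled cell types were missing and others were present. The Leydig genes Lhcgr, Hsd3b1, Hsd3b6 and Hsd17b3 had no count in any group, while Star (group means of 6.54 to 7.80 CPM) and Insl3 (1.73 to 3.13 CPM) were above the floor in every library. The 9 Leydig markers summed to 8.03 to 11.9 CPM over all libraries. Of 11 Sertoli markers, Fshr, Dmrt1 and Nr0b1 had no count in any group, and 4 to 7 were above the floor in all libraries of a group. The 11 summed to 59.8 to 63.7 CPM in TM4 MEHP, 59.7 to 64.7 in TM4 DMSO, 365 to 378 in TM3 MEHP and 400.2 to 437 in TM3 DMSO. Gata4 and Sox9 were more abundant in TM4, Gata4 at means of 50.4 CPM in TM4 MEHP, 51.9 in TM4 DMSO, 31.1 in TM3 MEHP and 35.3 in TM3 DMSO, and Sox9 at 1.96, 2.36, 0.206 and 0.361 CPM in the same groups. Clu ran the other way, at means of 0.494 CPM in TM4 MEHP, 1.59 in TM4 DMSO, 157 in TM3 MEHP and 204 in TM3 DMSO. So did Wt1, which had 3 counts over the TM4 MEHP libraries and 4 over the TM4 DMSO libraries, against group means of 169 CPM in TM3 MEHP and 167 CPM in TM3 DMSO. The lines are therefore called by their names below. The summed level of 9 myoid and fibroblast markers was 1997 to 2160 CPM in TM4 MEHP and 3367 to 3649 CPM in TM4 DMSO, with 5 of the 7 tested lower and none of the 9 but Tcf21 at 0 in a TM4 group. Col1a1 made up most of that sum, at means of 1758 CPM in TM4 MEHP and 2824 CPM in TM4 DMSO. Tagln and Des were the tested markers not called. The part of this marker fall in the TM4 results below was not tested. In TM3 the same sum was 8461 to 8682 CPM with MEHP and 8017 to 8266 CPM with DMSO. In bulk RNA, fewer cells of a type and less RNA per cell cannot be told apart.

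Of the 9 genes, 7 passed the filter on low counts and entered the tests, Pgr only through its TM4 libraries. Nr3c2, the mineralocorticoid receptor, had a single count, in TM3 MEHP library 1. Esr2, the second estrogen receptor, had no count in the 3 TM4 MEHP libraries and 0, 4 and 4 counts in the TM4 DMSO libraries. In TM3 it had 2, 0 and 0 counts with MEHP and 0, 0 and 2 with DMSO. Both receptors were thus at or near the floor in every group, and at this depth no difference between groups could be detected for them.

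**Figure D1:**
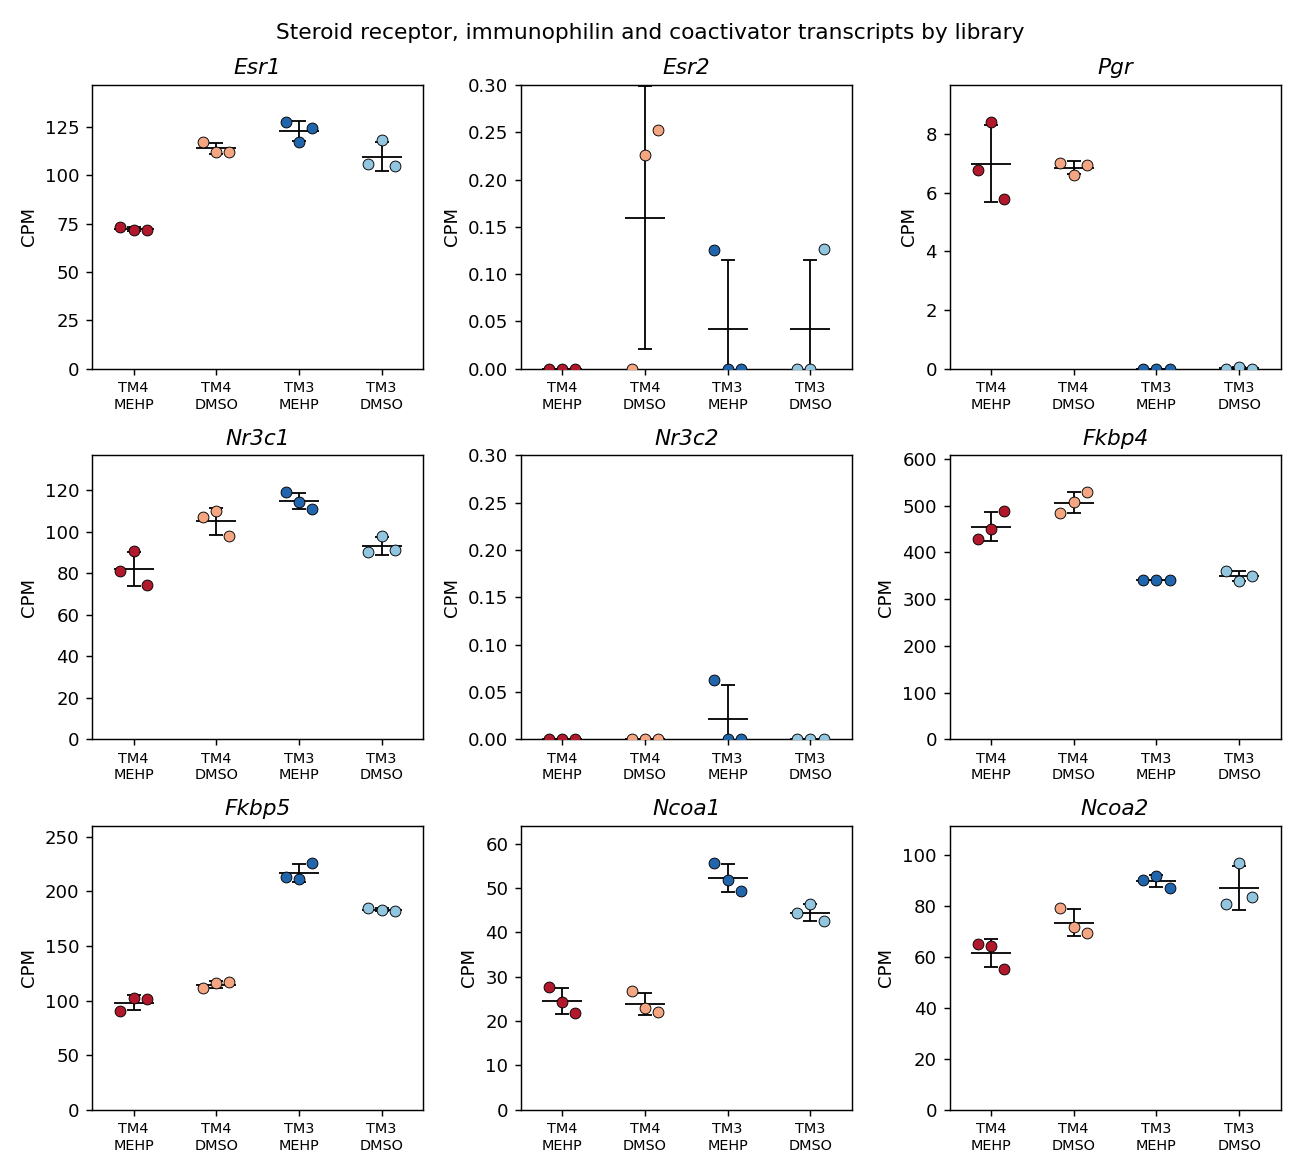
Level of each of the 9 genes in CPM (linear axis from 0) in every library, for TM4 MEHP, TM4 DMSO, TM3 MEHP and TM3 DMSO, with the group mean (long bar) and SD (capped line) of 3 libraries. Esr1 sits near 72 CPM in TM4 MEHP and above 100 CPM in the other groups, Pgr is counted in TM4 only apart from a single TM3 DMSO count, and the axes of Esr2 and Nr3c2 end at 0.3 CPM.

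Levels between genes were compared per length, as RPKM, which is the CPM divided by the length of the gene model in kilobases. Fkbp4 was the most abundant of the set in every group, at a mean of 163 RPKM in TM4 MEHP, 181 in TM4 DMSO, 122 in TM3 MEHP and 125 in TM3 DMSO, which put it at the 98.0 to 98.6 percentile of the tested genes. In TM4 MEHP the order below it was Nr3c1 (11.1 RPKM), Fkbp5 (10.4), Esr1 (5.28), Ncoa2 (3.94), Ncoa1 (2.87) and Pgr (0.817). Nr3c1 and Fkbp5 did not differ there beyond their spread. In TM4 DMSO the order was the same, with Nr3c1 at 14.1, Fkbp5 at 12.1, Esr1 at 8.33, Ncoa2 at 4.71, Ncoa1 at 2.80 and Pgr at 0.802 RPKM. TM3 cells had Fkbp5 above Nr3c1, at 22.9 against 15.5 RPKM with MEHP and 19.4 against 12.5 RPKM with DMSO, followed by Esr1 at 9.0 and 8.02 RPKM. Among the genes above the floor in TM3, Ncoa1 and Ncoa2 came last, at 6.09 and 5.74 RPKM with MEHP and at 5.19 and 5.57 RPKM with DMSO, and did not differ beyond their spread in either group.

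In TM4 cells the transcripts of both abundant receptors were lower with MEHP. Esr1 fell most, to 0.634 of its DMSO level, Nr3c1 fell to 0.782, Fkbp5 to 0.856, Ncoa2 to 0.837 and Fkbp4 to 0.899, while Pgr and Ncoa1 did not pass the test. No gene of the set rose. These are 5 lower of 7 tested, where 15.0% of all 15700 tested genes were lower, 15.9% higher and 30.9% changed in either direction (edgeR quasi-likelihood F-test, Benjamini-Hochberg adjusted p under 0.05). For 4 of the 7 genes MEHP and DMSO libraries did not overlap, against 38.8% of all tested genes.

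Esr1 encodes ERalpha, the receptor through which estradiol acts in most tissues. It had 73.4, 71.4 and 71.7 CPM in TM4 MEHP, against 117, 112 and 112 CPM in TM4 DMSO. Each MEHP library lay far below each DMSO library, and the spread inside both groups was small. The log2 fold change was -0.66 ± 0.06 (SE, adjusted p = 3.52e-10). Nr3c1 encodes the glucocorticoid receptor and had 81.2, 90.6 and 74.5 CPM with MEHP, against 107, 109.96 and 97.8 CPM with DMSO. Again the groups did not overlap, though the MEHP libraries spread more widely than those of Esr1. Its log2 fold change was -0.35 ± 0.06 (adjusted p = 7.87e-05).

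Fkbp5 is a glucocorticoid-induced immunophilin that in turn lowers the hormone affinity of the glucocorticoid receptor. In TM4 it had 90.1, 103 and 102 CPM with MEHP and 111, 116 and 117 CPM with DMSO. All MEHP libraries were below all DMSO libraries, at a log2 fold change of -0.22 ± 0.06 (adjusted p = 0.00213). Fkbp4, the immunophilin that favours transport of the receptor into the nucleus, had 428, 449 and 489 CPM with MEHP and 485, 507 and 529 CPM with DMSO. Here the highest MEHP library reached into the DMSO range. The log2 fold change of Fkbp4 was -0.15 ± 0.05 (adjusted p = 0.0242). This call was lost without TM4 DMSO library 3, TM4 MEHP library 1 or TM4 MEHP library 2, at adjusted p-values of 0.0711 to 0.121, and in a fit of the TM4 libraries alone, at 0.0685.

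Ncoa2 encodes the p160 coactivator known as GRIP1 or TIF2. It had 65.1, 64.5 and 55.3 CPM in TM4 MEHP, against 79.5, 71.9 and 69.5 CPM in TM4 DMSO, and the groups did not overlap. The log2 fold change was -0.26 ± 0.07 (adjusted p = 0.00700), and it was no longer called without TM4 DMSO library 1 or TM4 MEHP library 3 (0.0575 to 0.0606). Ncoa1, the p160 coactivator SRC-1, had 27.6, 24.4 and 21.8 CPM with MEHP and 26.8, 23.0 and 22.2 CPM with DMSO. These ranges lay almost on top of each other, with a log2 fold change of 0.04 (95% interval -0.15 to 0.22, adjusted p = 0.809). Pgr, a textbook target of estrogen receptor in the uterus and breast, had 114, 153 and 101 counts with MEHP, or 6.76, 8.41 and 5.79 CPM, and 111, 117 and 110 counts with DMSO, or 7.0, 6.61 and 6.95 CPM. The DMSO values fell inside the MEHP range. The log2 fold change of Pgr was 0.03 (95% interval -0.34 to 0.40, adjusted p = 0.940), an interval that does not reach the size of the Esr1 fall.

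In TM3 cells 4 of these genes were higher with MEHP, by small amounts. Nr3c1 was at 1.23, Fkbp5 at 1.18, Ncoa1 at 1.17 and Esr1 at 1.12 times its DMSO level, and none fell. They are 4 higher of the 7 tested, where 9.04% of all tested genes were higher, 7.43% lower and 16.5% changed in either direction. The 7 include Pgr, which its TM4 libraries alone brought into the test. It could not be called in TM3, at 0 counts with MEHP and 1 with DMSO. For 3 of the 7 the groups did not overlap, against 35.4% of all tested genes. The count was 2 without TM3 DMSO library 1 or 3, TM3 MEHP library 1 or 3 or TM4 DMSO library 2, and 2 with RLE in place of TMM scaling, and of the 4 calls those of Nr3c1 and Fkbp5 held in every alternative run.

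Nr3c1 had 119, 115 and 111 CPM in TM3 MEHP, against 90.2, 98.1 and 91.0 CPM in TM3 DMSO. The groups were well apart, with a log2 fold change of 0.30 ± 0.06 (adjusted p = 0.00100). Fkbp5 had 213, 212 and 226 CPM with MEHP, against 185, 183 and 182 CPM with DMSO. The DMSO libraries were almost identical and all MEHP libraries lay above them, at a log2 fold change of 0.24 ± 0.05 (adjusted p = 0.00139). Ncoa1 had 55.7, 51.7 and 49.3 CPM with MEHP, against 44.4, 46.5 and 42.7 CPM with DMSO, again without overlap. Its log2 fold change of 0.23 ± 0.08 was close to the threshold (adjusted p = 0.0467) and passed no longer without TM3 DMSO library 1 or 3, any of the 3 TM3 MEHP libraries or TM4 DMSO library 2 (0.0514 to 0.212).

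Esr1 had 127, 117 and 124 CPM in TM3 MEHP, against 106, 118 and 104 CPM in TM3 DMSO. Here 1 DMSO library lay inside the MEHP range. The log2 fold change was 0.17 ± 0.06 (adjusted p = 0.0389), a call lost without TM3 DMSO library 1 or 3, TM3 MEHP library 1 or 3 or TM4 DMSO library 2 (0.0602 to 0.202). Ncoa2 had 90.5, 91.8 and 87.1 CPM with MEHP and 80.8, 97.1 and 83.5 CPM with DMSO, the MEHP values inside the DMSO range (log2 fold change 0.04, 95% interval -0.10 to 0.19, adjusted p = 0.751). Fkbp4 had 340.1, 342 and 342 CPM with MEHP, against 361, 339.8 and 351 CPM with DMSO (log2 fold change -0.04, 95% interval -0.15 to 0.07, adjusted p = 0.694). Neither interval reaches the size of the Nr3c1 response in TM3. Pgr had no count in TM3 MEHP and a single count in TM3 DMSO, so no fold is given.

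**Figure D2:**
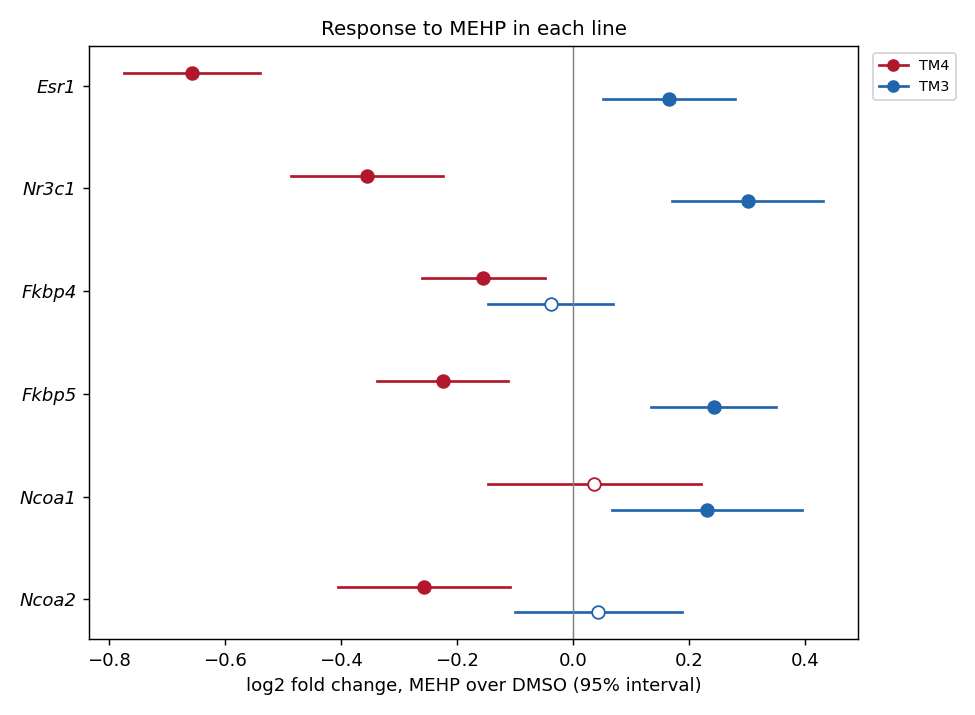
Log2 fold change of MEHP over DMSO (horizontal axis) for the 6 genes counted in both lines, TM4 above TM3 for each gene, with 95% intervals from the edgeR fit over 3 libraries a group. Filled points passed an adjusted p of 0.05. Esr1, Nr3c1 and Fkbp5 lie left of 0 in TM4 and right of 0 in TM3, and Esr1 in TM4 is farthest from 0 at -0.66.

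The response itself differed between the lines for 4 of the 7 tested genes, all with the lower value in TM4, where 13.3% of all tested genes had a lower response in TM4 and 26.3% differed in either direction. Pgr, among the 7, was at the floor in TM3, so its difference could not be called. For Esr1 the difference, TM4 minus TM3, was -0.82 ± 0.08 on the log2 scale (adjusted p = 5.06e-09), from -0.66 in TM4 and 0.17 in TM3. Nr3c1 differed by -0.66 ± 0.09 (adjusted p = 2.57e-06) and Fkbp5 by -0.47 ± 0.08 (adjusted p = 2.91e-05). Both of these genes passed the test in opposite directions in the lines. The Ncoa2 difference was -0.30 ± 0.10 (adjusted p = 0.0266), and it was not called without TM3 DMSO library 1 or 3, TM3 MEHP library 1 or 2, TM4 DMSO library 1 or TM4 MEHP library 3 (0.0553 to 0.0899). Differences for Fkbp4 (-0.12 ± 0.07, adjusted p = 0.276) and Ncoa1 (-0.19 ± 0.12, adjusted p = 0.258) did not pass.

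Between the lines, Pgr separated TM4 from TM3. TM4 MEHP libraries held 368 Pgr counts in all and TM3 MEHP libraries held none, which makes the level in TM4 at least 37.7-fold higher, taken against the floor of 3 counts per library (0.185 CPM). TM4 DMSO held 338 Pgr counts and TM3 DMSO held 1, a ratio of 342 with a 95% counting interval of 60.9 to 13543. That interval covers counting error only. With DMSO, 3 genes were higher in TM4 and 3 lower of 7 tested, and without Pgr, which its TM4 libraries alone brought into the test, 2 were higher and 3 lower of 6, where 40.0% of all tested genes were higher, 42.0% lower and 82.0% different. The DMSO libraries of the lines did not overlap for 4 of the 6, against 82.9% of all tested genes. Most genes thus differed between the lines.

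Under DMSO Esr1 did not differ detectably between the lines, at 114 ± 2.78 CPM in TM4 and 109.5 ± 7.61 CPM in TM3 (SD, n = 3 each, log2 fold change 0.05, 95% interval -0.06 to 0.17, edgeR adjusted p = 0.371). Under MEHP it was lower in TM4, at 72.2 ± 1.08 CPM against 123 ± 5.2 CPM in TM3 (log2 fold change -0.77 ± 0.06, adjusted p = 1.04e-13). Nr3c1 was slightly higher in TM4 under DMSO, at 104.96 ± 6.38 CPM against 93.1 ± 4.36 CPM, with overlapping libraries (0.17 ± 0.06, adjusted p = 0.0145). This call did not hold without TM3 DMSO library 1 or 3 or TM4 DMSO library 2 (0.0569 to 0.0767), nor with upper-quartile scaling (0.0513). Under MEHP Nr3c1 was lower in TM4, at 82.1 ± 8.08 CPM against 115 ± 4.04 CPM (-0.48 ± 0.06, adjusted p = 4.36e-08).

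Each immunophilin and coactivator differed between the lines in the same direction under both agents. Fkbp5 was lower in TM4, at a log2 fold change of -1.14 ± 0.05 with MEHP and -0.68 ± 0.05 with DMSO (adjusted p = 1.04e-18 and 5.60e-13). Fkbp4, the opposing immunophilin, was higher in TM4, by 0.42 ± 0.05 with MEHP and 0.53 ± 0.05 with DMSO (adjusted p = 1.60e-08 and 7.91e-11). Ncoa1 was lower in TM4, at -1.09 ± 0.08 with MEHP and -0.89 ± 0.09 with DMSO (adjusted p = 3.13e-13 and 4.47e-11). Ncoa2 was lower too, at -0.54 ± 0.07 with MEHP and -0.24 ± 0.07 with DMSO (adjusted p = 4.87e-08 and 0.00255). With MEHP all 6 genes other than Pgr differed, 1 higher and 5 lower in TM4, where 39.9% of all tested genes were higher, 40.4% lower and 80.3% different, and the libraries of the lines did not overlap for any of the 6, against 80.8% of all tested genes.

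**Figure D3:**
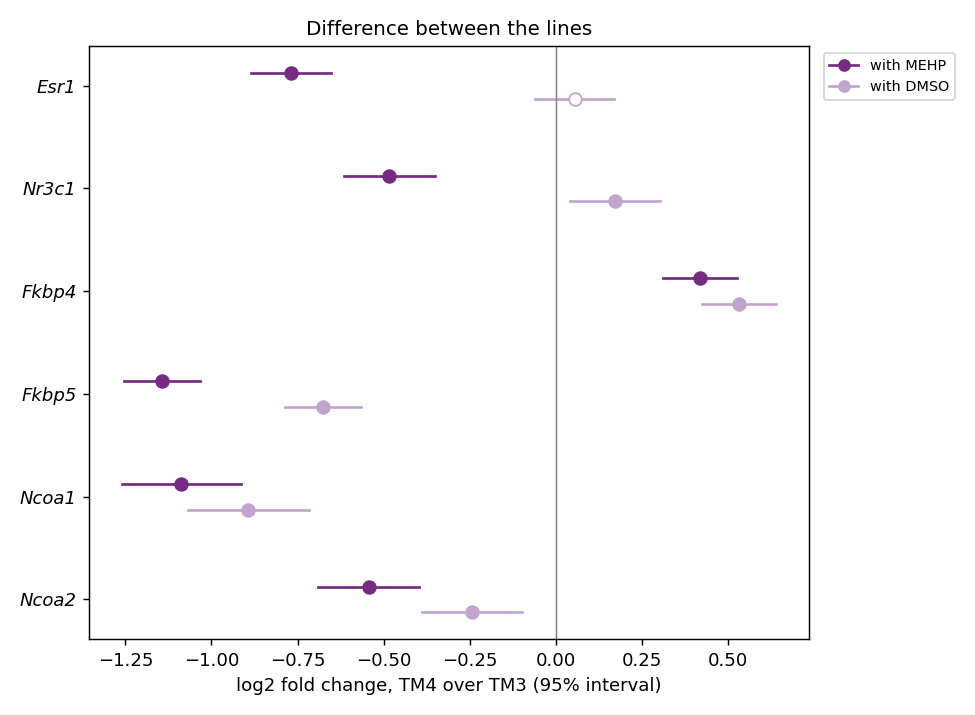
Log2 fold change of TM4 over TM3 (horizontal axis) for 6 genes, with MEHP above and with DMSO below for each gene, with 95% intervals from the edgeR fit over 3 libraries a group. Filled points passed an adjusted p of 0.05, and Pgr is left out because it is at the floor in TM3. Esr1 sits at -0.77 with MEHP and at 0.05 with DMSO, and Fkbp4 is right of 0 under both agents.

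The upstream sequences of 3 genes are shown because they cover the line-restricted receptor, the receptor that fell most and the immunophilin that moved in opposite directions. They are the 250 bases before each RefSeq transcript start on GRCm38.p6, the mm10 assembly, printed 5′ to 3′ on the gene's strand with CG dinucleotides in capitals.
Pgr, chr9:8899583-8899832, plus strand: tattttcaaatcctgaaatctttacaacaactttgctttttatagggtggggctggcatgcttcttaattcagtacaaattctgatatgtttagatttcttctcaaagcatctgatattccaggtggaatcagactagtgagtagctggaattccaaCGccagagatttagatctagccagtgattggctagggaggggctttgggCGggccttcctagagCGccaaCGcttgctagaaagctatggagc
Esr1 upstream start, chr10:4611739-4611988, plus strand: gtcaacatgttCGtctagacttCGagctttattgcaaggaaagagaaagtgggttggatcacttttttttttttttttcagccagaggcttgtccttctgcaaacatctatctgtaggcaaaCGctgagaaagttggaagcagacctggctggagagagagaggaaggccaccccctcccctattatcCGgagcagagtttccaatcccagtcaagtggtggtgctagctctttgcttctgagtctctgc
Esr1 downstream start, chr10:4709908-4710157, plus strand: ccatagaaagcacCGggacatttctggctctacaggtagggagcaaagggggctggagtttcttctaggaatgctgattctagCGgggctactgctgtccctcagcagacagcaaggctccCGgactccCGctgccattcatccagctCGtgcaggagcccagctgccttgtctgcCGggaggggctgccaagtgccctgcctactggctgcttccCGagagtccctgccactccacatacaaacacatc
Fkbp5, chr17:28486150-28486399, minus strand: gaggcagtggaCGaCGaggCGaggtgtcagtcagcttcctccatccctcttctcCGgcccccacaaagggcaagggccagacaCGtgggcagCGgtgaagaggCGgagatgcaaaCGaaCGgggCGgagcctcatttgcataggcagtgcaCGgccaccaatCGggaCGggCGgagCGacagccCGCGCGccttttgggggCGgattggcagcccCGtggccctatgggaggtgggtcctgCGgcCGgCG

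The Pgr window held 4 CG dinucleotides, the Esr1 windows 4 and 7, and the Fkbp5 window 23, where the median of 32851 RefSeq windows was 6. Among the other genes of the set with a window in the RefSeq table, Ncoa1 held 40, Fkbp4 25, Nr3c2 17 and Esr2 12. Table entries matched 7 of the 9 genes, with 8 windows. The Pgr window ends just before its gene model in the count table. The Fkbp5, Nr3c2 and both Esr1 windows lie inside theirs, so they precede internal starts and not the outermost ones. A full glucocorticoid response element, searched on both strands as GNACANNNTGTNC, was in 0 of the 8 windows taken over 300 bases (to 50 bases past the start), and in 0.475% of all windows. A full estrogen response element, searched on both strands as GGTCANNNTGACC, was in 0 of the 8 and in 0.0700% of all windows. No match says only that these letters are not in this window.

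In the mm10 coordinates of the deposited table, Esr1 lies on chromosome 10 from 4611593 to 5005614 and Pgr on chromosome 9 from 8899833 to 8968611, both on the plus strand. Fkbp5 lies on chromosome 17 from 28399094 to 28517527 and Fkbp4 on chromosome 6 from 128429735 to 128438677, both on the minus strand. Ncoa1 lies on chromosome 12 from 4247362 to 4477182 and Ncoa2 on chromosome 1 from 13139105 to 13374083, also on the minus strand. The strand setting of the counting is not given in the sources used here. Overlaps were looked up in the GENCODE M21 annotation, not in the annotation used for counting. There, the only exons of the set opposite another gene's exons are 68 bases of Ncoa1, beside a gene with 1 count over all libraries, and 247 bases of Nr3c2. The Nr3c1 model differs between the 2 sources, at 7425 bases in the deposited table and 7684 in GENCODE.

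Among 21 tested genes of the HSP90 and HSP70 chaperone cycle, which folds these receptors before they bind hormone, 9 were lower and 3 higher in TM4 MEHP than in TM4 DMSO, or 57.1% in either direction beside 30.9% of all tested genes. Hsph1, an HSP70 exchange factor, had 239, 235 and 243 CPM in TM4 MEHP, against 560.2, 579.9 and 554 CPM in TM4 DMSO. Every MEHP library was under every DMSO library by a wide margin (log2 fold change -1.24 ± 0.05, adjusted p = 6.94e-19). Hspa8, the constitutive HSP70, fell by 1.06 and Dnajb1, an HSP40 cochaperone, by 0.55 on the log2 scale. Hsp90aa1, the inducible HSP90, averaged 562 ± 25.6 CPM in TM4 MEHP and 841 ± 47.1 CPM in TM4 DMSO (SD, n = 3 each), a log2 fold change of -0.58 ± 0.05 (edgeR adjusted p = 4.79e-10). The constitutive Hsp90ab1 fell less, by 0.25 (adjusted p = 0.000512). Ptges3, which encodes p23, had a log2 fold change of -0.08 (adjusted p = 0.433). The 3 that rose in TM4 were Stub1, Unc45a and Cdc37, by 0.28, 0.27 and 0.25 on the log2 scale.

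In TM3 the chaperone list had 5 lower and none higher of 21, or 23.8% beside 16.5% of all tested genes, with 3 lower without TM3 MEHP library 1 and 1 higher without TM3 DMSO library 3. The 4 with the largest changes were the receptor phosphatase Ppp5c (-0.27 ± 0.07, adjusted p = 0.00380), the HSP40 Dnaja1 (-0.27 ± 0.05, adjusted p = 0.000371), the cochaperone Sgta (-0.23 ± 0.05, adjusted p = 0.00380) and the ubiquitin ligase Stub1 (-0.21 ± 0.06, adjusted p = 0.0149). The Stub1 call was lost without TM3 DMSO library 1 or 3 or TM3 MEHP library 1 (0.0521 to 0.0921). In TM3 Hsp90aa1 had a log2 fold change of -0.05 (adjusted p = 0.547), Hsp90ab1 of -0.06 (adjusted p = 0.511) and Ptges3 of 0.07 (adjusted p = 0.570). The median log2 fold change over the 21 was -0.13 in TM4 and -0.07 in TM3, where the medians over all tested genes were 0.00 and 0.01.

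Of 12 other FKBP genes tested, 3 were higher and 4 lower in TM4, or 58.3% beside 30.9% of all tested genes. Fkbpl, a small HSP90-binding relative of FKBP4, rose by 0.98 ± 0.25 (log2, adjusted p = 0.00358), Fkbp15 rose by 0.28, and the endoplasmic reticulum members Fkbp14 and Fkbp9 fell by 0.33 and 0.23. In TM3 Fkbp2 (-0.38 ± 0.09, adjusted p = 0.00214) and Fkbp8 (-0.36 ± 0.07, adjusted p = 0.000410) fell and none passed as higher, or 16.7% beside 16.5% of all tested genes, with 1 higher without TM4 MEHP library 1 or 3. The median log2 fold change of the list was -0.10 in TM4 and -0.08 in TM3.

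The third p160 coactivator, Ncoa3 (SRC-3), was among 25 other coactivators tested. It had 78.2, 69.6 and 60.2 CPM in TM4 MEHP, against 90.4, 87.7 and 88.9 CPM in TM4 DMSO (log2 fold change -0.36 ± 0.07, adjusted p = 0.000196). In TM3 it had 57.2, 53.7 and 51.0 CPM with MEHP, against 37.8, 39.9 and 39.3 CPM with DMSO (0.47 ± 0.08, adjusted p = 3.42e-05). Ncoa3 thus moved in opposite directions in the lines without overlap in either, a difference of -0.83 (adjusted p = 4.88e-07). In TM4, 4 coactivators were higher and 4 lower, a share of 32% near the 30.9% of all tested genes, and 7 were lower without TM4 MEHP library 1. Ppargc1b fell by 0.67, Ncoa7 rose by 0.52 and the acetyltransferase Kat2a rose by 0.34. In TM3, 2 were higher and 1 lower, a share of 12% beside 16.5% of all tested genes. Besides Ncoa3 these were the acetyltransferase Kat2b (0.20, adjusted p = 0.0201) and the arginine methyltransferase Prmt1 (-0.26, adjusted p = 0.00911), neither of them called without TM3 DMSO library 1 or TM3 MEHP library 1, and Kat2b not without TM3 MEHP library 2. Without TM3 DMSO library 2 the lower count was 3.

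Corepressors lower transcription at the target genes of nuclear receptors. Of 13 tested, 2 were higher and 5 lower in TM4, or 53.8% beside 30.9% of all tested genes, and 15.4% changed in TM3 beside 16.5%. The lower count was 3 without TM4 DMSO library 1 or TM4 MEHP library 2, and the higher count was 1 when any 1 TM4 DMSO library, TM4 MEHP library 1 or TM4 MEHP library 3 was left out. The scaffold Sin3a fell by 0.36 and Tbl1xr1, a subunit of the NCoR complex, by 0.25. Lcor fell by 0.49 (adjusted p = 0.0116, and 0.0565 without TM4 DMSO library 1), and Nrip1 fell by 0.31 (adjusted p = 0.0126, and 0.0507 to 0.122 without TM4 MEHP library 2 or 3). In TM3 Tbl1xr1 was higher (0.18, adjusted p = 0.0319) and Safb lower (-0.16, adjusted p = 0.0327), and both calls were lost when any 1 TM3 MEHP library was left out (0.0551 to 0.165). Tbl1xr1 was also lost without TM3 DMSO library 1 or 3 and Safb without TM3 DMSO library 2 or 3. Ncor1 had a log2 fold change of -0.15 in TM4 (adjusted p = 0.346) and 0.20 in TM3 (adjusted p = 0.267). The TM3 value of Ncor1 was called without TM4 MEHP library 3 (adjusted p = 0.0233). The medians of the corepressor list were -0.08 in TM4 and -0.05 in TM3, and those of the coactivator list -0.05 and 0.04.

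**Figure D4:**
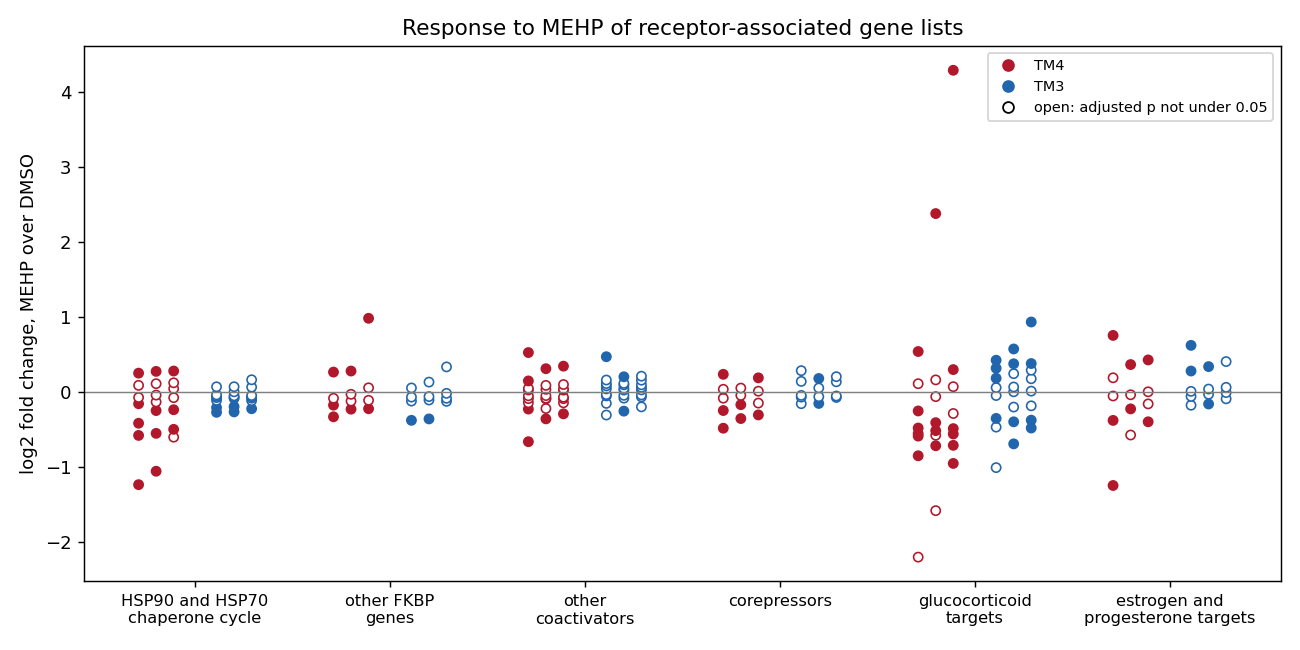
Log2 fold change of MEHP over DMSO (vertical axis) for each tested gene of 6 lists related to steroid receptor action, TM4 left of TM3 in each list, with open circles for an adjusted p not under 0.05. The glucocorticoid target list has most of its TM4 points under 0, with a median of -0.49, and its TM3 points on both sides of 0.

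The listed target genes of the glucocorticoid receptor were more often lower than higher in TM4 MEHP. This list, like the other related lists, was chosen with earlier results of these data known. Its shares are thus descriptions and no test of an excess. Of 24 tested, 12 were lower and 4 higher, or 66.7% in either direction beside 30.9% of all tested genes (15.0% lower, 15.9% higher), with a median log2 fold change of -0.49, against 0.00 over all tested genes. Tsc22d3, which encodes the glucocorticoid-induced leucine zipper GILZ, had 102, 116 and 117 CPM in TM4 MEHP, against 174, 192 and 184 CPM in TM4 DMSO, with no overlap (log2 fold change -0.71 ± 0.06, adjusted p = 5.47e-10). The clock gene Per1 had 168, 174 and 154 CPM with MEHP, against 301, 297 and 299 CPM with DMSO (-0.85 ± 0.06). Dusp1, a MAP kinase phosphatase, had 61.2, 69.1 and 58.9 CPM with MEHP, against 124, 125 and 118 CPM with DMSO (-0.96 ± 0.07). The MEHP libraries lay below the DMSO libraries in all 3 genes.

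Sgk1, a kinase induced by gluco- and mineralocorticoids, fell by 0.59 ± 0.08 in TM4 (adjusted p = 1.13e-06), to 30.7 ± 4.46 CPM in TM4 MEHP against 46.3 ± 2.38 CPM in TM4 DMSO (SD, n = 3 each). Errfi1, Cebpd, Glul, Nfkbia, Zfp36, Mertk, Ctgf and Gadd45b also fell in TM4. The 4 that rose were Angptl4 (4.29 ± 0.10), Pdk4 (2.38 ± 0.10), Ddit4 and Snai2. Angptl4 and Pdk4 are also known targets of the PPAR family of nuclear receptors, and what moved any gene of this list was not tested. Klf9 (log2 fold change 0.11, adjusted p = 0.155) and Mt1 (0.07, adjusted p = 0.506) were among the listed genes not called in TM4.

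In TM3 the same list had 7 higher and 5 lower, where 9.04% of all tested genes were higher and 7.43% lower, with a median of 0.03, or 0.06 without the gene at 0 in a group. Tsc22d3 had 241, 233 and 216 CPM in TM3 MEHP, against 188, 163 and 164 CPM in TM3 DMSO, again without overlap (0.42 ± 0.06, adjusted p = 8.64e-06). Per1 had 129, 124 and 143 CPM with MEHP, against 113, 122 and 115 CPM with DMSO (0.18 ± 0.06, adjusted p = 0.0270). The groups were close for Per1, and its call was lost without TM3 DMSO library 1 or 3 or TM3 MEHP library 3 (0.103 to 0.227). Klf9, Errfi1, Angptl4 (0.57 ± 0.06), Pdk4 (0.93 ± 0.09) and Snai2 were the others that rose. Zfp36 (-0.69 ± 0.09), Mt1 (-0.48 ± 0.07), Cebpd, Tgm2 and Gadd45b fell. Sgk1 had a log2 fold change of 0.06 in TM3 (adjusted p = 0.552).

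The response of 12 of the 24 glucocorticoid targets differed between the lines, 8 lower in TM4 and 4 higher, where 26.3% of all tested genes differed (13.3% lower, 13.0% higher). Tsc22d3 differed by -1.13 (adjusted p = 9.10e-11), Per1 by -1.03 (adjusted p = 6.72e-11) and Errfi1 by -0.80 (adjusted p = 2.26e-07). Dusp1, Sgk1, Klf9, Nfkbia and Gadd45b were the others with the lower response in TM4, and Mt1, Ddit4, Angptl4 and Pdk4 had the higher response in TM4. Beside these counts stands the fall of the summed myoid and fibroblast markers in TM4 given above, whose part in them was not tested.

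Known estrogen and progesterone receptor targets moved both ways. Of 13 tested, 3 were higher and 4 lower in TM4, or 53.8% beside 30.9% of all tested genes, with a median of -0.06, or -0.11 without the gene at 0 in a group. Cxcl12, a chemokine, had 11.9, 17.1 and 13.2 CPM in TM4 MEHP, against 32.2, 34.8 and 33.4 CPM in TM4 DMSO (-1.25 ± 0.08). In TM3, where it was far more abundant, it had 1407, 1391 and 1425 CPM with MEHP, against 1126, 1170.5 and 1188 CPM with DMSO (0.28 ± 0.06). Its groups stood apart in each line, and the response differed by -1.53 (adjusted p = 1.07e-11). Ccnd1, which encodes cyclin D1, had 58.0, 61.0 and 55.2 CPM in TM4 MEHP, against 77.3, 75.6 and 77.2 CPM in TM4 DMSO (-0.40 ± 0.06). In TM3 Ccnd1 had 53.5, 56.3 and 57.5 CPM with MEHP, against 34.96, 39.6 and 34.3 CPM with DMSO (0.62 ± 0.07), and the response differed by -1.02 (adjusted p = 1.60e-09). Greb1 (-0.23 ± 0.06, adjusted p = 0.00616) and Rara (-0.38 ± 0.07, adjusted p = 0.000120) also fell in TM4. In TM3 they had -0.06 (adjusted p = 0.612) and -0.01 (adjusted p = 0.949). Stc2, Myc and Gata3 rose in TM4, by 0.75, 0.43 and 0.36. In TM3, 3 were higher and 1 lower, or 30.8% beside 16.5% of all tested genes, with Xbp1 up by 0.34 and Ctsd down (-0.16, adjusted p = 0.0395). The Ctsd call was lost without TM3 DMSO library 1 or 3, any TM3 MEHP library or TM4 DMSO library 1 (largest adjusted p 0.204).

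Of 21 genes for enzymes and transporters that act on steroids before they reach a receptor, 12 were tested. Hsd11b1, which regenerates active glucocorticoid, had a mean of 0.0198 CPM in TM4 MEHP and no count in the other groups. In TM4, 3 of the 12 were higher and 1 lower, a share of 33.3% near the 30.9% of all tested genes. Srd5a1 (0.49 ± 0.17, adjusted p = 0.0301) and Hsd17b7 (0.36 ± 0.08) were among the higher, and Akr1c14 (-0.41 ± 0.06) was lower. Srd5a1, a steroid 5-alpha-reductase, was not called without TM4 DMSO library 1 or 2 or TM4 MEHP library 1 or 2 (0.0572 to 0.181), and the count of higher genes was 1 without TM4 DMSO library 2 or TM4 MEHP library 2. In TM3, 2 were higher and none lower (16.7% beside 16.5% of all tested genes), Akr1c14 (0.30 ± 0.07) and H6pd (0.25 ± 0.05), which supplies NADPH to the Hsd11b1 enzyme.

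A list of 20 genes, called other receptors here, held nuclear receptors, membrane steroid receptors and relatives of both. Not all of them are known to bind a steroid. Of the 20, 13 were tested, with 0 higher and 1 lower in TM4 and 1 higher and 1 lower in TM3. These are 7.69% and 15.4%, beside 30.9% and 16.5% of all tested genes. The lower gene in TM4 was Pgrmc2, a membrane-associated progesterone-binding protein, at 175 ± 10.3 CPM in TM4 MEHP against 199 ± 8.09 CPM in TM4 DMSO (SD, n = 3 each, -0.18 ± 0.06, edgeR adjusted p = 0.0215). That call was lost without TM4 DMSO library 2 or 3 or TM4 MEHP library 1 or 2 (0.0561 to 0.0900). In TM3 Paqr4 fell by 0.50 ± 0.09 and the vitamin D receptor Vdr had 0.20 ± 0.07 (adjusted p = 0.0469), a call lost when any 1 TM3 library, TM4 DMSO library 2 or TM4 MEHP library 2 was left out (0.0501 to 0.166). The lower count in TM3 was 2 without TM3 DMSO library 2, TM3 MEHP library 3 or TM4 MEHP library 1 or 3. Pgrmc1, the abundant membrane progesterone-binding protein, had log2 fold changes of -0.05 in TM4 (adjusted p = 0.537) and -0.06 in TM3 (adjusted p = 0.473).

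Likeness of pattern was measured as the root mean square difference of centred log2 CPM over the 12 libraries, among 10765 named genes. The profile nearest to Esr1 was that of Lamb1, at 0.0445, followed by Kank2 at 0.0923 and Pdlim5 at 0.100. Nr3c1 was nearest to Strn at 0.0733, Ncoa1 to Afap1 at 0.0753 and Ncoa2 to Ago1 at 0.0528. Fkbp4 was nearest to Eef1b2 at 0.0272. Pgr was nearest to Ifit1bl2 at 0.195. With Pgr at the floor in every TM3 library, that value describes mainly the gap between the lines. Fkbp5 was nearest to Eno1 at 0.0648, but Eno1 has a near-identical copy, Eno1b, so its counts are uncertain. These values are descriptions over libraries that share 2 lines and 2 treatments.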

How the data were processed

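The deposited table holds the authors' counts, unnormalized whole numbers for each gene in each library, beside coordinates and gene lengths. The submitters' processing notes name edgeR, featureCounts 1.5.0-p3, HISAT2 2.0.5, DESeq2 1.20.0 and StringTie 1.3.3b, and the mm10 build. Counting options are not given in the sources used. From these counts, CPM were computed with TMM-scaled totals and RPKM with the table's gene lengths. After filterByExpr left 15700 genes, edgeR 4.0.16 (R 4.3.3, TMM, robust quasi-likelihood F-test) was run as 1 fit over 12 libraries and 4 groups with 8 residual degrees of freedom. Benjamini-Hochberg adjustment ran over all tested genes, with a threshold of 0.05. Each standard error was the size of the log2 fold change divided by the root of F. Checks on simulated data preceded the tests. The 12 pairs of replicates all differed by more than sampling noise.

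The 9 genes and the related lists were chosen with earlier results of these data known. From each list, up to 4 genes per MEHP contrast were named that passed with the largest change, reached 2 CPM in the higher group and had libraries that did not overlap, and 11 genes were always looked up, of which 1 is not reported here. Further genes whose call completes a short list are named after their values were seen. Alternatives were RLE and upper-quartile scaling, no filter, a stricter filter (1 CPM in 3 libraries), DESeq2 1.42.0, limma-voom (limma 3.58.1), a replicate block, a fit of the compared groups alone and each library left out. Promoter windows came from RefSeq on GRCm38.p6.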

Additional observations from a re-analysis of the deposited data

Results flagged for a closer look

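Of all tested genes, 26.3% differed between the lines in their MEHP response (edgeR, adjusted over all tested genes). The response of 4 of these genes, of 7 tested, differed by this test of the difference itself. TM4 minus TM3, on the log2 scale, it was -0.82 for Esr1, -0.66 for Nr3c1, -0.47 for Fkbp5 and -0.30 for Ncoa2. Esr1, Nr3c1 and Fkbp5 were called lower in TM4 and higher in TM3, and the TM3 call of Esr1 and the Ncoa2 difference depended on single libraries as given above. With 3 libraries a group, single samples were not screened for outliers.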

How the results depend on the processing

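Of 7 tested genes of the set, 5 passed for TM4 MEHP against TM4 DMSO, 4 for TM3 MEHP against TM3 DMSO and 4 for the difference of responses. The counts were 7 for TM4 MEHP against TM3 MEHP and 6 for TM4 DMSO against TM3 DMSO. Of all tested genes, 30.9%, 16.5%, 26.3%, 80.3% and 82.0% passed in the same order. Pgr, brought into the test by its TM4 libraries alone, is among the 7 and is called in both comparisons of the lines. With RLE scaling the TM3 count was 2, Esr1 missing at an adjusted p of 0.0514 and Ncoa1 at 0.0558. Leaving out 1 library at a time gave 4 to 5, 2 to 4, 3 to 4, 7 to 7 and 5 to 6 in the same order. Without the filter on low counts Esr1 in TM3 missed at 0.0774, and with DESeq2 Ncoa1 in TM3 missed at 0.0621. The TM4 and difference values of Esr1, Nr3c1 and Fkbp5 and the TM3 values of Nr3c1 and Fkbp5 passed in the same direction in every alternative run. Esr1 in TM4 ranged over these from -0.68 to -0.64.

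Signs turned only for values that did not pass, when 1 library was left out. Over the libraries left out, the log2 fold change in TM3 ranged from -0.0057 to 0.13 for Ncoa2, and in TM4 from -0.13 to 0.15 for Pgr, from -0.051 to 0.12 for Ncoa1 and from -0.15 to 0.0038 for Ptges3. Whether the replicate numbers pair the samples is not settled. Over pairs within and between the lines, deviations of same-numbered libraries correlated between -0.0394 and 0.120, with 2 of 12 pairs over 0.1. A library correlated best with its own number in 12 of 24 cases. Between TM4 MEHP and TM4 DMSO, same-numbered libraries correlated at 0.114, 0.0277 and 0.120, and differently numbered ones at -0.120 to 0.00673. Over all tested genes a replicate block gave 5029 calls in TM4 and 2827 in TM3, against 4856 and 2585 without it. With the replicate block the counts were 5, 4, 4, 7 and 6, as without it. It added the call of Ncor1 in TM3 (adjusted p = 0.0414), with 2 corepressors higher and 2 lower in TM3 and 2 other receptors lower, and changed no call of the 9 genes. Scaling by RLE or upper-quartile factors shifted the median of all genes by at most 0.04 on the log2 scale. Depth limited Esr2, Nr3c2 and Pgr in TM3, which were at or under 3 counts a library or close to it. The short lists moved with other settings too. In TM3, a fit of the TM3 libraries alone gave 5 corepressors higher and 2 lower and 2 coactivators lower. In TM4, the pre-receptor genes that were higher numbered 5 with upper-quartile scaling and 1 with DESeq2, against 3, and higher corepressors numbered 1 with RLE, DESeq2 or the TM4 libraries alone, against 2. In TM3 1 FKBP gene passed as higher, against 0, with DESeq2, limma-voom, the stricter filter or the TM3 libraries alone. RLE left 0 other receptors higher and 2 lower in TM3, and no filter left 2 corepressors higher and 0 lower. The causes were not tested.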
